A study of Mus musculus with 9 samples.

Results

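The transcripts of 4 forkhead transcription factors, Foxp3, Foxp1, Foxo1 and Foxo3, were followed in sorted mouse regulatory T (Treg) cells. They were taken by gene symbol, and all 4 were found among the 13698 genes measured. RNA of 9 libraries was sequenced, 3 in each of 3 groups, all from female mice of a C56Bl6/129 mix and from spleen and lymph node; no source used here gives ages. The deficient cells were YFP+MHCII- cells of mice labelled LRFffThpokff Foxp3 Cre-YFP/X. Cre and YFP are made from a Foxp3 allele, so Zbtb7a (LRF) and Zbtb7b (Thpok) are deleted in cells that use that allele. The animal controls were YFP-MHCII-CD25hi cells of the same 3 mice (142114, 232614 and 432614), which use the unmodified Foxp3 allele and keep both factors. The genetic controls were YFP+MHCII- cells of 3 other mice (124, 8619 and 8800) labelled WT Foxp3 Cre-YFP/X, which also use the Foxp3-YFP-Cre allele and keep both factors. Both YFP-positive groups therefore share the modified allele, and the sort asked for high CD25 only in the animal controls.

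Foxp3 is encoded on the X chromosome and defines the Treg lineage: it is switched on when Treg cells form, and it works as a large complex that activates some Treg genes and holds down effector genes such as cytokines. In a female with 1 modified allele, X inactivation leaves each cell with 1 active copy. Foxp1 is the closest relative of Foxp3 among the others, is made widely in lymphocytes and can bind many of the same DNA sites. Foxo1 and Foxo3 are held out of the nucleus when the kinase AKT is active. In resting T cells they keep up genes of homing and survival, and in Treg precursors they help to turn on Foxp3.

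The Foxp3 start region is shown because the groups differ in the allele of this gene. Foxp3 (ENSMUSG00000039521.13) spans chrX:7573644-7595245 on the plus strand of GRCm38, and RefSeq (GRCm38.p6) gives it 2 start sites. The sequences below run upstream of each start on the plus strand and leave out every annotated Foxp3 exon. The first covers chrX:7579426-7579566 (141 bases), and the second chrX:7580233-7580482 (250 bases), which lies in an intron of the longer transcripts. Both lie inside an exon of Flicr, a noncoding RNA gene that is not analysed here. Capitals mark the forkhead core, TGTTT on either strand.
Foxp3 upstream of start 1: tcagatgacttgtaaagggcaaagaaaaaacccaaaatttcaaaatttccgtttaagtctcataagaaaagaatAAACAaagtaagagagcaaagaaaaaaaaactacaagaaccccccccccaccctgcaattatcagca
Foxp3 upstream of start 2: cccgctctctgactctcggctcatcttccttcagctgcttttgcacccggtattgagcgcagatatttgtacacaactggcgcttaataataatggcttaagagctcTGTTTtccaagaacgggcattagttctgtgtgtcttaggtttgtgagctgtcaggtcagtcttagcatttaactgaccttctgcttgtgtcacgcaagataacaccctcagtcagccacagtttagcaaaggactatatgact
Each of these holds 1 match to the core, a motif so short that 50.5% of the 32851 RefSeq promoter windows of 300 bases hold it. Neither full window of Foxp3 held the longer forkhead site TGTTTAC (in 3.65% of all windows) or the RUNX site TGTGGT (in 16.8%), searched on both strands. The GC content of the Foxp3 windows was 40.7% and 47.7%, below the median of all windows (52.7%). The windows of Foxo1 (61.3%) and Foxo3 (75.0%) lay above that median, and the 3 windows of Foxp1 held 75.3%, 48.7% and 60.3%.

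The deposited values were read as log2 CPM, reads of a gene scaled to 1 total for all libraries, quantile-normalized so that every library has the same distribution of values. Read depth is unknown for this reason, and no counting interval can be given. As a check on the labels, Zbtb7b lay at 0.147 to 0.366 CPM in deficient cells and at 76.9 to 149 CPM in all 6 control libraries. Zbtb7a overlapped between all groups (69.5 to 128 CPM); reads outside the deleted part can be counted, so its level checks nothing. All 10 defining Treg markers and all 8 T cell markers were detected in each library. Genetic control 8619 stood apart in markers of other cells: the 8 measured of 10 myeloid markers summed to 513 CPM in it against 96.7 to 173 CPM in the other 8 libraries, with Lyz2 at 257 CPM. Its 6 measured of 10 erythroid and platelet markers summed to 76.1 CPM, next to 40.8 CPM in deficient 232614 and at most 1.13 CPM elsewhere. The 5 measured of 8 B cell markers reached 54.7 to 71.7 CPM as a sum in deficient cells, 13.8 to 30.5 CPM in genetic and 58.0 to 106 CPM in animal controls. Most of that sum was Cd79b. The 3 measured NK cell markers summed to at most 11.7 CPM in any library.

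Foxp3 was about 28-fold lower in both YFP-positive groups than in the animal controls. In the deficient cells it read 35.9, 34.1 and 26.5 CPM (mice 142114, 232614 and 432614). In the genetic controls it read 38.1, 36.9 and 24.8 CPM (mice 124, 8619 and 8800). In the animal controls it read 961, 754 and 1000 CPM (mice 142114, 232614 and 432614). The 6 YFP-positive libraries lay in 1 narrow band, and even the lowest animal control was far above it, without overlap.

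The deficient cells were lower than the animal controls by a log2 difference of -4.81 ± 0.25 (SE), a 28.1-fold difference with a 95% interval of 19.2 to 41.3 (adjusted p = 5.18e-05, limma with Benjamini-Hochberg adjustment over all genes). Foxp3 was the only 1 of the 4 members called here, where 0.891% of all genes were called at an adjusted p under 0.05, 0.584% as lower and 0.307% as higher. Of all 13698 genes it had the lowest p. Within each mouse the animal control library held 26.7-fold (142114), 22.1-fold (232614) and 37.7-fold (432614) the level of the deficient library. With the mouse as a replicate block the difference was unchanged, while its adjusted p was 0.0871, above the threshold; that fit called no gene (0 of 13698, with 1401 at an unadjusted p under 0.05).

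The genetic controls, in which both Zbtb7a and Zbtb7b are intact, were lower in Foxp3 than the animal controls by nearly the same amount, at a log2 difference of -4.78 ± 0.25 (27.5-fold, interval 18.7 to 40.3, adjusted p = 5.55e-05, limma). This comparison called 0.0365% of genes, 5 in all and each of them lower. The B cell marker sum was lower in the genetic than in the animal controls, and its part in the Foxp3 difference was not tested. Without genetic control 8619 the log2 difference was -4.87 (adjusted p = 0.000514, limma). The modified allele and the CD25 gate changed together between these groups, and so did the mice; what each contributes cannot be told apart. In sorted bulk cells, fewer cells with the transcript and less of it per cell cannot be told apart either. No source used here says where the Cre-YFP sequence sits in Foxp3 or how reads over that allele were counted. What counting adds to the difference was not tested. The Foxp3 locus overlaps Flicr on its own strand and Ppp1r3f, Gm36995 and Ccdc22 on the other, and no source used here says whether counting kept strand, so reads shared with these genes could not be separated.

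Between the YFP-positive groups, which use the same Foxp3 allele, no difference in Foxp3 was detected. The log2 difference of deficient cells to genetic controls was -0.03 ± 0.25 with a 95% interval of -0.59 to 0.52 (adjusted p = 0.992, limma), and the libraries of the groups were interleaved. None of the 4 members was called in this comparison, where 0.869% of all genes were called. At an unadjusted p under 0.05 1 of the 4 passed, Foxo1, while 10.6% of all genes did.

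**Figure D1:**
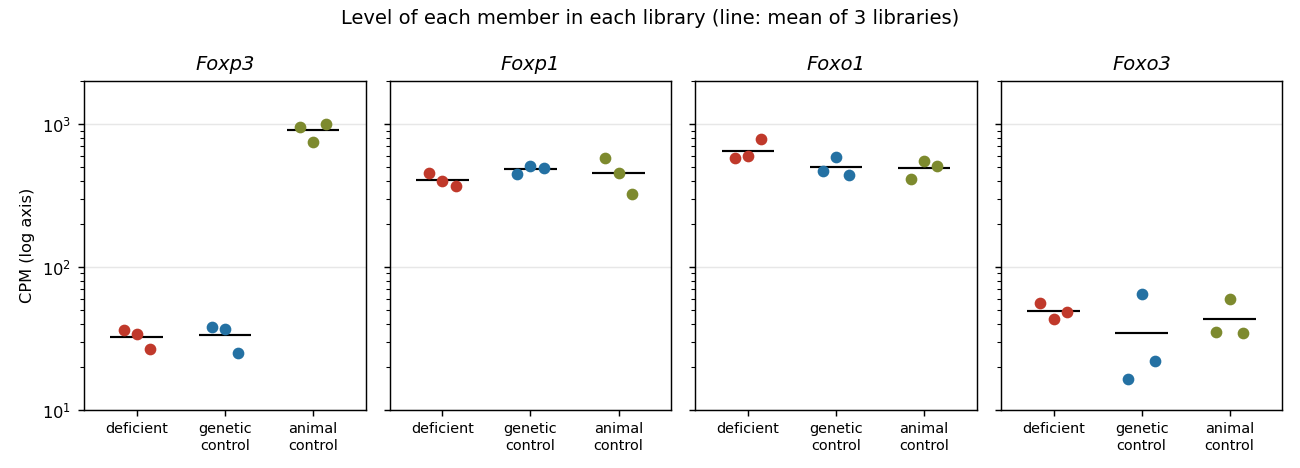
Level of each member in CPM (log axis) in each of the 9 libraries, by group; points are libraries and the line is the mean of 3. Foxp3 lies between 24.8 and 38.1 CPM in the 6 YFP-positive libraries and between 754 and 1000 CPM in the animal controls, while the groups lie much closer together for the other 3 genes.

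The other 4 genes called between the genetic and animal controls moved in another way than Foxp3. They were Mtmr9, a myotubularin-related phosphatase, Xkr6, and the predicted genes Gm9625 and Gm8730. Mtmr9 read 30.4, 27.5 and 19.2 CPM in genetic controls but 229, 316 and 261 CPM in deficient cells and 232, 357 and 165 CPM in animal controls. All 4 were also called in deficient cells against genetic controls and none in deficient cells against animal controls, so libraries of the same mice were alike. Foxp3 was called in the last comparison and not in the one before: here libraries of the same mice differed.

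Foxp1, a broad lymphocyte forkhead factor (chr6:98925338-99522721, minus strand), was high in every library and did not separate the groups. It read 457, 397 and 367 CPM in deficient cells, with 444, 508 and 492 CPM in genetic and 578, 458 and 326 CPM in animal controls. The ranges of all 3 groups overlapped, and the animal controls alone spanned the whole range, from 326 to 578 CPM. The log2 differences were -0.25 (interval -0.67 to 0.18) against the genetic controls, -0.13 (-0.55 to 0.30) against the animal controls and 0.12 (-0.31 to 0.55) between the controls. Adjusted p-values were 0.720, 0.874 and 0.971 (limma). An annotated gene, Gm20696, overlaps part of Foxp1 on the same strand.

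Foxo1, the main Foxo factor of T cells (chr3:52268336-52353221, plus strand), had its 2 highest readings in deficient cells. It read 578, 597 and 782 CPM there, 471, 587 and 442 CPM in the genetic controls, and 412, 551 and 512 CPM in the animal controls. All deficient libraries lay above all animal controls, by a narrow gap (578 against 551 CPM), while genetic control 8619 lay between the deficient libraries. The share of all genes without overlap was not computed. The log2 difference was 0.38 ± 0.17 (interval 0.01 to 0.75) against the genetic controls and 0.41 ± 0.17 (0.03 to 0.78) against the animal controls. The unadjusted p-values from limma, 0.0454 and 0.0350, became 0.462 and 0.374 after adjustment, so neither difference was called. Between the controls the log2 difference was 0.03 (-0.34 to 0.40).

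Foxo3 (chr10:42181841-42276755, minus strand), the second Foxo factor of T cells, was the least abundant of the 4 in the animal controls and had the widest spread within groups (SE of a log2 difference 0.50, against 0.17 to 0.25 for the others). It read 55.8, 43.0 and 48.6 CPM in deficient cells, with 16.3, 64.8 and 21.96 CPM in genetic and 34.8, 59.7 and 34.2 CPM in animal controls. The value of 64.8 CPM came from library 8619, the library with the myeloid and erythroid markers; their part in it was not tested. The log2 difference of deficient cells to genetic controls was 0.78 (interval -0.35 to 1.91, adjusted p = 0.645, limma). Without library 8619 it was 1.37 (adjusted p = 0.279), and it was not called in either case. Against the animal controls it was 0.24 (-0.89 to 1.37), and between the controls -0.54 (-1.67 to 0.59), or -1.13 without 8619 (adjusted p = 0.749).

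**Figure D2:**
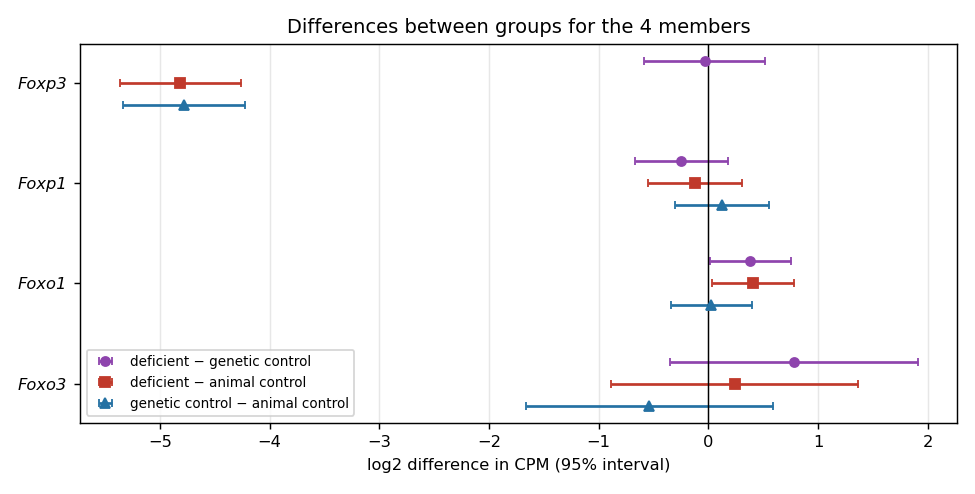
Log2 differences in CPM between groups with 95% intervals from limma, for the 4 members and the 3 comparisons (marker shape and colour). Both comparisons of Foxp3 with the animal controls lie near -4.8, and the intervals of Foxp1 and Foxo3 include 0 in every comparison.

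Per kilobase of annotated exon, the order of the 4 factors changed with the group. In the animal controls Foxp3 led with 198 ± 28.8 CPM per kb (SD, n = 3), followed by Foxo1 with 56.7 ± 8.28, Foxp1 with 33.0 ± 9.16 and Foxo3 with 5.67 ± 1.92 CPM per kb, and no neighbours in that order overlapped. In the deficient cells Foxo1 led with 75.3 ± 13.0 CPM per kb, ahead of Foxp1 with 29.6 ± 3.34 CPM per kb. Foxp3 with 7.03 ± 1.10 and Foxo3 with 6.49 ± 0.846 CPM per kb overlapped there. The genetic controls had the same order, with Foxo1 at 57.7 ± 8.86, Foxp1 at 35.0 ± 2.42, Foxp3 at 7.27 ± 1.61 and Foxo3 at 4.54 ± 3.50 CPM per kb, and again the last pair overlapped. In both YFP-positive groups, the range of the transcript that defines the lineage overlapped that of Foxo3. The exon lengths are those of the annotated genes, not of the modified Foxp3 allele.

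The genes around Foxp3 on the X chromosome were compared to see whether the drop reached beyond Foxp3 itself. Of 28 other genes annotated within 250 kb, 12 were measured, and 8 of them averaged at least 10 CPM. None of the 12 was called by limma in any of the 3 comparisons. At an unadjusted p under 0.05 there was 1 (Tfe3) in deficient cells against genetic controls and 0 in each comparison with the animal controls. Of all genes, 0.869% were called in deficient cells against genetic controls, 0.891% against animal controls and 0.0365% between the controls. The unadjusted mark was passed by 10.6%, 11.9% and 6.62% of all genes. Between the genetic and animal controls the 8 genes ranged from a log2 difference of -0.69 (Gripap1) to 0.17 (Tfe3). Plp2, a membrane protein gene, differed by -0.02 and Wdr45, an autophagy gene, by -0.22. Between the deficient cells and animal controls the 8 ranged from -1.12 (Tfe3) to 1.01 (Syp). Over all 233 X-linked genes of at least 10 CPM other than Foxp3, the median log2 difference was -0.05 between the controls and 0.09 between the deficient cells and animal controls, with 0 and 1 called. Foxp3 was the only gene measured in this region that was called in either comparison with the animal controls. With 12 other genes, the absence of further calls is near the share of all genes called.

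**Figure D3:**
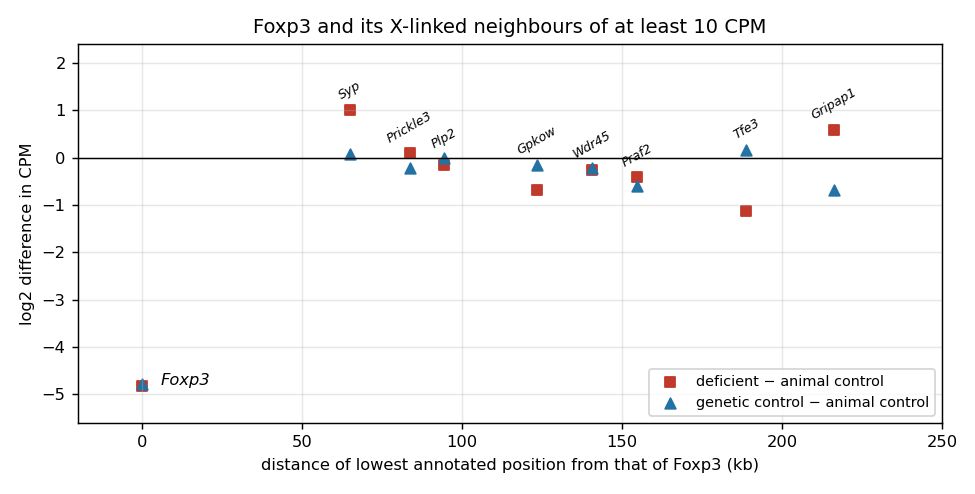
Log2 difference in CPM of Foxp3 and of the 8 measured neighbours of at least 10 CPM, against the distance in kb between the lowest annotated position of each gene and that of Foxp3. Foxp3 lies near -4.8 in both comparisons with the animal controls, and the neighbours lie between -1.12 and 1.01.

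Genes that Foxp3 activates, or that rise with it in Treg cells, lay mostly below 0 in all 3 comparisons, and some were called in the comparisons of deficient cells; whether the comparisons differ was not tested. The list had 28 genes with Foxp3, and all 27 others were measured. It was chosen with earlier results of these data known. Its values beside those of all genes are therefore a description and no independent test. Between the genetic and animal controls, where Foxp3 differed 27.5-fold, none of the 27 was called by limma. This is near the share of all genes called there (0.0365%). An unadjusted p under 0.05 was seen for 4, against 6.62% of all genes. Of the 27, 23 lay below 0, and the median log2 difference was -0.41, next to -0.02 over all genes. Between the deficient cells and genetic controls, whose Foxp3 levels overlapped, 7 of the 27 fell and none rose, with 20 below 0 and a median of -0.97 next to 0.04 over all genes; 0.533% of all genes fell. Against the animal controls 9 of 27 fell and none rose, where 0.584% of all genes fell; 20 lay below 0, with a median of -1.22. With the mouse as a replicate block, none of these 9 calls remained (0 of 27).

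Of the 9 defining Treg markers other than Foxp3, none was called between the genetic and animal controls by limma, where 0.0365% of all genes were. At an unadjusted p under 0.05 there were 2, against 6.62% of all genes. Below 0 lay 7 of the 9, with a median log2 difference of -0.16 next to -0.02 over all genes. Some markers overlapped between these groups and others did not, and the share of all genes without overlap was not computed. Ctla4, the inhibitory receptor that strips costimulatory ligands, read 50.3, 50.3 and 57.4 CPM in genetic and 41.8, 36.6 and 58.2 CPM in animal controls (log2 difference 0.24, interval -0.42 to 0.89). Il2ra, which encodes CD25 and was part of the sort, read 788, 584 and 657 CPM in genetic and 800, 738 and 771 CPM in animal controls (-0.20, interval -0.51 to 0.11). Those ranges overlapped although only the animal controls were gated on high CD25. Lrrc32, the carrier of latent TGF-beta, differed by -0.16 (-0.65 to 0.33) and Gpr83, a Treg-enriched receptor, by -0.08 (-0.64 to 0.48) on the log2 scale. Ikzf2 (Helios) read 321, 317 and 295 CPM against 420, 516 and 385 CPM, without overlap, at a log2 difference of -0.49 (-0.84 to -0.14, adjusted p = 0.575, limma). Tnfrsf18 (GITR), Icos and Tigit, costimulatory and inhibitory receptors, also lay lower in the genetic controls without overlap, at log2 differences of -0.35, -0.50 and -1.60 (adjusted p = 0.768, 0.816 and 0.843).

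Some genes of the list were called lower in deficient cells against both controls, and others against the animal controls only. Capg, an actin-capping protein gene, read 121, 128 and 144 CPM in deficient cells, with 388, 407 and 520 CPM in genetic and 501, 616 and 625 CPM in animal controls. It fell by 1.73 on the log2 scale against the genetic controls (adjusted p = 0.00111, limma) and by 2.14 against the animal controls (adjusted p = 0.000282). Nrp1, a coreceptor found on thymus-derived Treg cells, read 46.5, 90.1 and 98.5 CPM in deficient cells, with 429, 382 and 383 CPM in genetic and 572, 782 and 879 CPM in animal controls. Its log2 differences were -2.42 ± 0.27 and -3.30 ± 0.27 (adjusted p = 0.00428 and 0.000688, limma). Between the genetic and animal controls the log2 difference of Nrp1 was -0.88, not past the threshold (adjusted p = 0.561, limma).

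Nt5e, the ecto-enzyme CD73 that makes adenosine, fell by 1.56 against the genetic controls and by 1.87 against the animal controls on the log2 scale (adjusted p = 0.00323 and 0.000925, limma). Klrg1, a receptor of effector Treg cells, read 0.0120 to 0.0612 CPM in deficient cells, with 3.56 to 44.2 CPM in genetic and 28.4 to 65.8 CPM in animal controls; levels this low give no firm fold. Folr4, the folate receptor family gene now named Izumo1r, read 700, 662 and 700 CPM in deficient cells, with 1072 CPM in the lowest control library. Its log2 differences were -0.71 and -0.86 (adjusted p = 0.0414 and 0.0137, limma). Il2ra was called against the animal controls only by a narrow margin (log2 difference -0.71, adjusted p = 0.0497). Tnfrsf4 (OX40) and Tigit were called against both controls and Icos against the animal controls.

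Some of these calls, and their number, depended on single libraries. Klrg1 lost its call against the genetic controls without genetic control 8619 or 8800 (adjusted p up to 0.0618). Folr4 lost it there without any 1 of the 6 libraries compared or animal control 232614 (adjusted p up to 0.158), and against the animal controls without deficient 232614 (adjusted p = 0.0584). Il2ra lost its call without genetic control 8800, deficient 232614 or 432614, or any 1 of the animal controls (adjusted p up to 0.140). Other settings ended calls too. Among them, limma without the trend ended those of Folr4 (adjusted p = 0.444 and 0.294), Il2ra (0.399) and Nt5e against the genetic controls (0.0509). A fit of only the 6 libraries compared ended those of Nrp1 (0.0562) and Klrg1 (0.0958) against the genetic controls. Over all alternatives Il2ra lost its call in 12 of 17. Folr4 lost it in 9 of 16 against the genetic and 4 of 17 against the animal controls, and Klrg1 in 4 of 16 against the genetic controls. Against the genetic controls 7 became 4 without genetic control 124 or 8619, 3 without 8800, 4 without deficient 142114 or 432614 and 4 without animal control 232614; against the animal controls 9 became 5 without animal control 142114 or 432614.

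**Figure D4:**
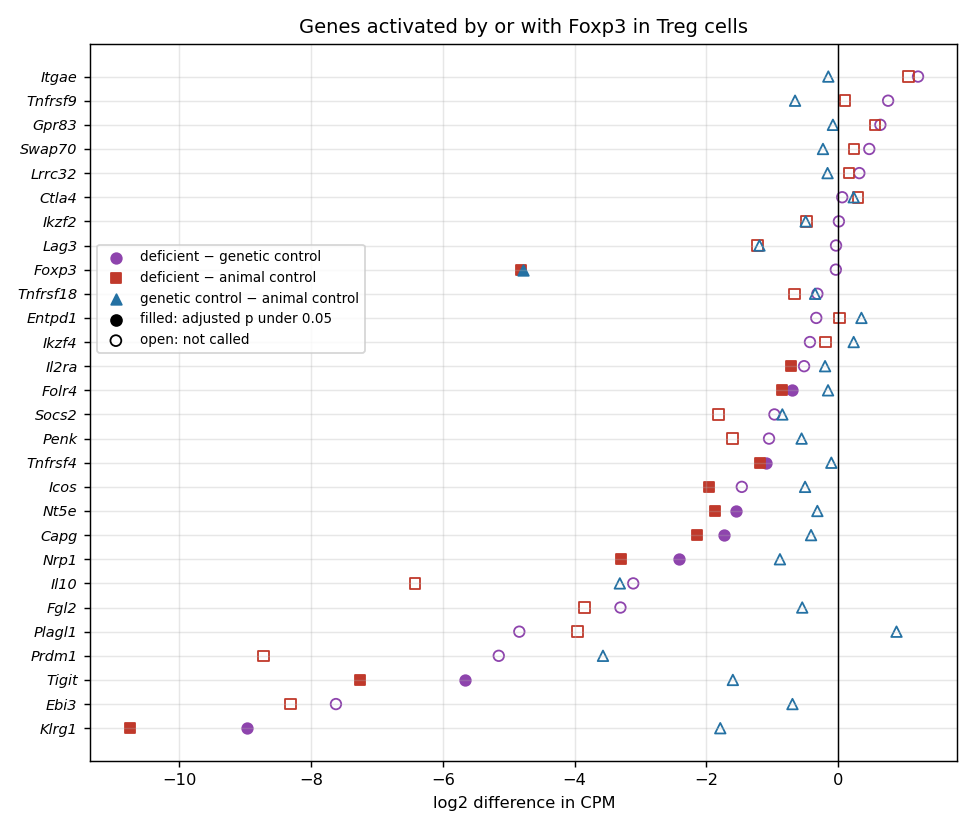
Log2 differences in CPM in the 3 comparisons (marker shape and colour) for the 28 listed genes activated by or with Foxp3; filled markers have an adjusted p under 0.05. Between the controls only Foxp3 is filled, and the other called genes lie left of 0 in both comparisons of deficient cells.

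Genes that Foxp3 represses, mainly cytokines and naive or effector genes, were not called higher in any comparison. Of 18 listed, 15 were measured. With so few genes the absence of higher calls is near the share of all genes called higher. That share was 0.336% and 0.307% in deficient cells against genetic and animal controls, and 0% between the controls. Between the controls none was called by limma (0.0365% of all genes were), and 1 had an unadjusted p under 0.05, against 6.62% of all genes. The median log2 difference was 0.03. In deficient cells against genetic controls 8 of the 15 had an unadjusted p under 0.05 in either direction, against 10.6% of all genes. There 1 was called lower and none higher, where 0.533% and 0.336% of all genes were. The called gene was Igfbp4, a growth factor binding protein gene of naive T cells. It read 49.9, 114 and 57.2 CPM against 189, 267 and 378 CPM (log2 difference -1.96 ± 0.34, adjusted p = 0.0336, limma). Its call was lost without any 1 of 7 of the 9 libraries, at adjusted p-values up to 0.129. These were genetic controls 8619 and 8800, deficient 142114 and 432614, and all 3 animal controls. Over all alternatives the Igfbp4 call was lost in 10 of 16. Against the animal controls none was called (0.891% of all genes were), and 7 had an unadjusted p under 0.05, against 11.9% of all genes.

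Among 34 genes that regulate Foxp3 itself, 1 was called in deficient cells against each control (0.869% and 0.891% of all genes were) and none between the controls (limma). At an unadjusted p under 0.05 there were 9, 6 and 8 of the 34, while 10.6%, 11.9% and 6.62% of all genes passed that mark. Runx3, a Runx factor that binds Foxp3 regulatory elements with its partner Cbfb and also drives the CD8 lineage, read 101, 90.3 and 97.1 CPM in deficient cells, with 17.9, 19.7 and 34.9 CPM in genetic and 91.7, 53.9 and 66.1 CPM in animal controls. It rose by 2.05 ± 0.33 on the log2 scale against the genetic controls (adjusted p = 0.0240). Against the animal controls its log2 difference was 0.48 (adjusted p = 0.647). Between the genetic and animal controls the log2 difference of Runx3 was -1.57, not called (adjusted p = 0.232, limma). The Runx3 call was lost without genetic control 124 or 8619, any 1 of the deficient libraries or animal control 432614 (adjusted p up to 0.0866). Over all alternatives it was lost in 8 of 16.

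Dnmt3a, a DNA methyltransferase that can silence the Foxp3 enhancer, read 205, 228 and 219 CPM in deficient cells, with 130, 194 and 117 CPM in genetic and 93.2, 92.0 and 108 CPM in animal controls. It rose by 1.16 ± 0.21 on the log2 scale against the animal controls (adjusted p = 0.0380, limma). The log2 difference was 0.60 between deficient cells and genetic controls (adjusted p = 0.321, limma) and 0.56 between the controls (adjusted p = 0.689), and neither was called. The Dnmt3a call was lost in 7 of 9 fits that left out 1 library, those without genetic control 124 or any 1 of the 6 libraries compared (adjusted p up to 0.114). Over all alternatives it was lost in 10 of 17, among them limma without the trend (adjusted p = 0.173) and scaling to housekeeping genes (0.0542). Cbfb, Runx1 and Gata3, other factors that act on Foxp3, were not called in any comparison; Gata3, for example, read between 194 and 287 CPM in all 9 libraries.

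Of the 27 genes for protein partners of Foxp3, none was called in any comparison by limma. With so few genes this is near the share of all genes called. That share was 0.869% and 0.891% in deficient cells against genetic and animal controls, and 0.0365% between the controls. The numbers at an unadjusted p under 0.05 were 8 in deficient cells against genetic controls, 7 against the animal controls and 3 between the controls, where 10.6%, 11.9% and 6.62% of all genes passed.

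The Foxo branch showed no called gene in any of its 3 lists. For lists this short, that is near the share of all genes called (0.869%, 0.891% and 0.0365%, in the order given for the partners). Of 26 genes that Foxo factors activate 25 were measured, and 7, 7 and 5 had an unadjusted p under 0.05 when deficient cells were set against genetic and then animal controls, and when the controls were compared. Il7r, the IL-7 receptor and a direct Foxo1 gene, read 198, 245 and 87.2 CPM in deficient cells, with 256, 447 and 286 CPM in genetic and 539, 680 and 412 CPM in animal controls. Its log2 difference to the animal controls was -1.72 ± 0.37 (adjusted p = 0.0769, limma). The homing genes Ccr7 and S1pr1 of the same list pointed the other way against the animal controls, with log2 differences of 0.70 and 0.45 (adjusted p = 0.0988 and 0.0887). Klf2, the factor through which Foxo1 acts on homing genes, differed by -0.12 (adjusted p = 0.808).

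Of 8 genes that Foxo factors restrain, 6 were measured, and 2, 2 and 0 had an unadjusted p under 0.05 in the same order of comparisons. Gzmb, the granzyme B gene, read 17.8, 41.5 and 30.3 CPM in deficient cells, with 5.85, 17.8 and 0.00891 CPM in genetic and 19.2, 15.9 and 6.83 CPM in animal controls. Of the 35 genes of PI3K and AKT signalling, which sends Foxo factors out of the nucleus, 3, 10 and 2 had an unadjusted p under 0.05. The shares of all genes are those given for the partners.

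The forkhead family as a whole was represented by 15 genes, 11 beside the members. None of the 11 was called by limma in deficient cells against genetic controls, against animal controls or between the controls. Of all genes 0.869%, 0.891% and 0.0365% were called in that order. At an unadjusted p under 0.05 there were 2, 1 and 2 of the 11, while 10.6%, 11.9% and 6.62% of all genes passed. With a group mean of at least 5 CPM there were 8: Foxn3, Foxj2, Foxj3, Foxn2, Foxk1, Foxk2, Foxp4 and Foxm1. Foxn3, a cell cycle checkpoint factor, read 209, 217 and 182 CPM in deficient cells and 274, 326 and 342 CPM in genetic controls. Its log2 difference was -0.63 ± 0.17, not called (adjusted p = 0.172, limma). Foxm1, a factor of dividing cells, read 7.47, 0.550 and 0.182 CPM in deficient cells, next to 8.90, 12.9 and 24.2 CPM in genetic controls (adjusted p = 0.440). Foxp4, the other measured relative of Foxp3, stayed between 12.7 and 30.7 CPM in all 9 libraries. Foxn2 read 69.0, 68.4 and 61.5 CPM in the deficient cells, but between 10.3 and 71.6 CPM in the 6 control libraries.

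**Figure D5:**
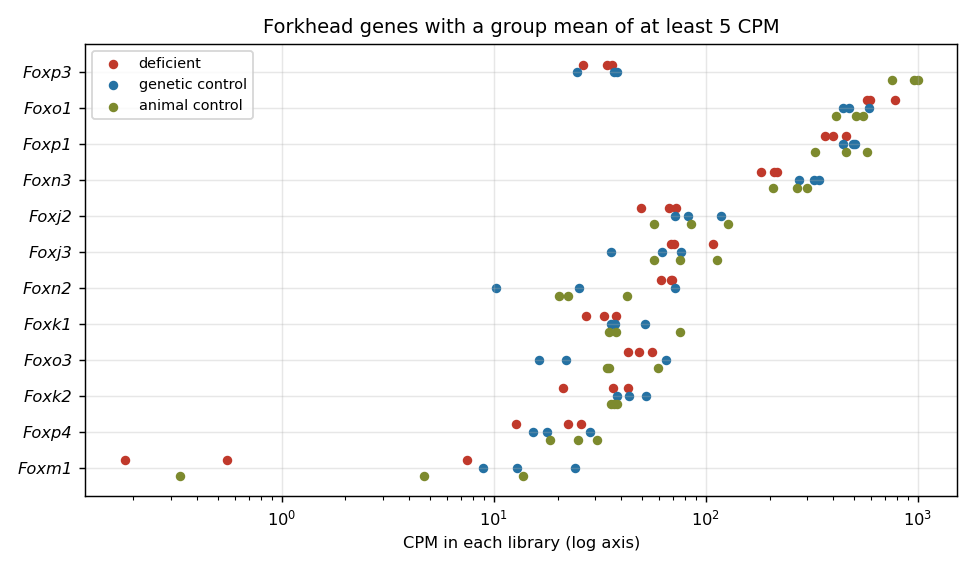
CPM (log axis) in each library for the 12 forkhead genes with a group mean of at least 5 CPM; colours mark the groups. Foxp3 is the only 1 of them called in any comparison, and it is split into a YFP-positive band and an animal control band.

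Genes with a pattern most like each member were ranked by Pearson's r of log2 CPM across the 9 libraries, among 8242 genes of at least 10 CPM; libraries share their group, so this is a description. For Foxp3 these were Ubl5 (r = 0.934), Ptplad1 (0.922), Nsmce1 (0.913), Zfp36l1 (0.912) and Spcs2 (0.900). For Foxp1 they were Hn1l (0.934), Rsrp1 (0.921), Zbtb38 (0.920), Cog4 (0.918) and Lars (0.906). For Foxo1 they were Prnp (0.947), Trmt112 (0.940), Plcb2 (0.924), Atp5h (0.915) and Fbxo7 (0.914). For Foxo3 they were Slc25a3 (0.931), Dot1l (0.912), Ipo13 (0.908), N6amt1 (0.902) and Katna1 (0.901). None of these 20 genes was called in any comparison.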

How the data were processed

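RNA was extracted with the RNeasy plus micro kit and libraries were made with SMARTer Ultra Low Input v3 and Nextera XT kits, per the labels. The submitters' processing notes list bcl2fastq 1.8.4, STAR 2.4.0h, limma (no version) and the build mm10. No source used here names the counting tool or the annotation. The authors deposited log2 values; their unit, quantile-normalized log2 CPM, was read from the values, since every library has the same lowest (-7.77) and highest (13.42) value and a linear sum near 999255. Of 13702 rows, 4 exact duplicates were dropped. The lowest value was held by 8.00% to 11.4% of the genes of a library.

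All 9 libraries were fitted with limma-trend (limma 3.58.1, R 4.3.3) on the deposited values, with no pseudocount or filter, 3 two-sided contrasts and Benjamini-Hochberg adjustment at 0.05 (called). The script was tested on simulated data. The libraries of a group bear different mouse numbers; whether animals were pooled is not stated in the labels. A single-gene exact permutation test of 3 against 3 cannot go below 0.1 and is not reported. Coordinates and exon lengths are from GENCODE M21 (GRCm38), which held 94.0% of the symbols.

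The 4 members and the gene lists were chosen with earlier results of these data known. Named beside the members were forkhead genes of at least 5 CPM, up to 4 called genes of each list by adjusted p, neighbours of Foxp3 and the 5 most similar genes; other list genes were named after their values were seen. The deficient cells and animal controls share mice. After group means were removed, libraries of the same mouse correlated at 0.0122 to 0.0319 over 8242 genes and those of different mice at -0.0271 to 0.0113. Alternatives were limma without the trend, a filter at 1 CPM, log2(CPM + 1), only the 6 libraries compared, scaling to housekeeping genes, library weights, each library left out, and the mouse as a replicate block, fixed or random.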

Additional observations from a re-analysis of the deposited data

How the results depend on the processing

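Foxp3 kept its direction and call against the animal controls in every alternative except the paired fit with the mouse as a fixed replicate block (log2 difference -4.81, adjusted p = 0.0871); leaving out 1 library gave -4.94 to -4.68 for the deficient cells and -4.91 to -4.58 for the genetic controls. Differences that were not called changed sign: Foxp3 between deficient cells and genetic controls ranged from -0.23 to 0.10 (0.08 without genetic control 124, 0.05 without 8619, 0.10 without deficient 432614), Foxp1 against the animal controls from -0.34 to 0.068, Foxp1 between the controls from -0.10 to 0.32, and Foxo1 between the controls from -0.10 to 0.11, or -0.025 with housekeeping scaling. No member other than Foxp3 was called under any alternative.

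Counts of called genes were less stable. Leaving out 1 library gave 48 to 93 genes in deficient cells against genetic controls (119 with all; 71, 48 and 49 without genetic controls 124, 8619 and 8800, 64, 72 and 68 without deficient 142114, 232614 and 432614, 72 without animal control 432614), 58 to 115 against the animal controls (122 with all; 74, 81 and 58 without animal controls 142114, 232614 and 432614) and 4 to 10 between the controls (5 with all; 10 without genetic control 124). With only the 6 libraries compared they were 22, 52 and 3, and limma without the trend called 32 between the controls. The fixed replicate block called 0 genes in deficient cells against animal controls, where the mouse as a random term called 148. The causes were not tested. Because depth is unknown, levels near the lowest value, such as those of Klrg1, cannot be told from 0.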

Other observations

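Foxd2, a forkhead gene under 5 CPM in each group mean, lay at the lowest value of the table in all 3 animal controls and read 2.95, 7.61 and 3.95 CPM in the deficient cells (adjusted p = 0.120, limma); in the genetic controls it read 1.49 and 3.16 CPM and was at the lowest value in the third. Foxo4, the third Foxo gene measured, read 3.16, 2.38 and 1.61 CPM in deficient cells. It read 1.78, 1.56 and 8.71 CPM in genetic and 0.253, 0.540 and 0.424 CPM in animal controls. Against the animal controls Foxo4 was not called in deficient cells (adjusted p = 0.434, limma) or genetic controls (adjusted p = 0.725). Both genes were named after their values were seen. Cd3e, a T cell receptor subunit, was the only 1 of 8 T cell markers called: it read 1260.2, 1307 and 1197 CPM in deficient cells, 971, 924 and 824 CPM in genetic controls, and 1378, 1241 and 1408 CPM in animal controls, so that the genetic controls were the group that lay apart (log2 difference of deficient cells to genetic controls 0.47, adjusted p = 0.0398), and the call was lost in all 9 fits that left out 1 library (adjusted p up to 0.137).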
